A study of Mus musculus with 17 samples.

Results

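Adding FLT3 ligand to 32D cells that carried human wild-type FLT3 was followed by higher expression of DNA replication, mitosis and DNA repair genes, and by lower expression of fewer genes, among them the transglutaminase gene Tgm2 and the receptor genes Havcr2 and Ptafr. The comparison set the 2 arrays of wild-type FLT3 cells grown with ligand against the 2 arrays of the same cells grown without it, out of 17 arrays in the series. The 4 arrays were picked by their labels, but the comparison and the gene lists were chosen with earlier results of these data known. 32D is an immortalised mouse myeloid progenitor line, described as myeloblast-like, that needs interleukin-3 to grow. The ligand-treated cells were a polyclonal population transduced with human wild-type FLT3 in the retroviral vector pLXRN, selected with G418 and given FLT3 ligand at 20 ng/mL. The wild-type FLT3 cells without ligand were the other portion of that split line, and were kept in mouse interleukin-3 at 1 ng/mL. The label of the ligand arrays could also be read as cells transduced with the ligand. The growth protocol, which describes 1 wild-type FLT3 line divided into portions with and without added ligand, was followed here, and all differences rest on that reading. The protocol lists interleukin-3 for the wild-type FLT3 line and does not say outright whether it stayed in the medium of the ligand portion. Cells with the empty pLXRN vector (2 arrays) and untransduced parental 32D cells (2 arrays) also grew in interleukin-3, the vector cells under the same G418 selection. The other 9 arrays came from 9 lines, each with a different internal tandem duplication (ITD) of FLT3, grown without interleukin-3. In all receptor lines a human receptor was made from a viral promoter in mouse cells. The cultures were passaged repeatedly before harvest, and no early time after adding ligand was measured.

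The FLT3 receptor sits on early blood progenitors and carries a tyrosine kinase inside the cell. Its ligand joins receptor molecules in pairs, and the kinase then signals through adaptor proteins to the RAS and ERK cascade, through PI3-kinase to AKT and, most strongly for ITD forms, through STAT5. In marrow the pathway is known for expanding multipotent and lymphoid-primed progenitors and for driving dendritic cell development. Each value below is a log2 array signal for a gene, the mean over the probe sets that map to it alone and pass a filter on low signal, for 20227 genes in all. A step of 1 on this scale is a 2-fold difference. A gene is called where limma's adjusted p, over all 20227 genes and with the error taken from the 8 arrays without an ITD, is under 0.05. The titles call the 2 arrays of a group biological replicates, but nothing says that they came from separate transductions or cultures, so the p-values measure the spread between these arrays, which may be technical. In RNA from whole cultures, fewer cells of a kind and less RNA per cell cannot be told apart.

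The 2 arrays of a group correlated at 0.983 to 0.986 across genes, which are not independent replicates. Ligand arrays correlated with wild-type FLT3 arrays at 0.977 to 0.983. The myeloblast label was checked on 8 markers. The granule proteases and peroxidase Ctsg, Prtn3 and Mpo, the leukocyte marker Ptprc, the factor Spi1 and the shared cytokine receptor chain Csf2rb lay between 9.53 and 12.34 on the 4 arrays. The stem and progenitor markers Cd34 and Kit were low, at 5.53 to 5.82. Of the 8, only Prtn3 was called between the ligand and no-ligand cells.

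The introduced receptor was read first. Of 30 probe sets on mouse Flt3, 6 read higher on all arrays of receptor-carrying lines than on all receptor-free arrays. Their mean was 8.72 and 8.74 in ligand-treated cells, against 8.57 and 8.50 in wild-type FLT3 cells without ligand. It was 3.46 and 3.77 in vector cells, and the ITD lines ranged between 8.73 and 9.48 with a median of 9.01. The separation from receptor-free lines was fixed by this choice of probe sets, and only the values among receptor-carrying lines are a description beyond it. The 6 probe sets did not move together with ligand. The largest difference, 0.58, came from a probe set that failed the filter on low signal. The brightest probe sets differed by -0.10 and 0.10, and the others by 0.06, 0.07 and 0.45. The whole-gene value of Flt3 was 6.89 and 6.88 with ligand against 6.73 and 6.79 without, and its difference of 0.13 ± 0.14 (SE) was not called, with a limma adjusted p of 0.714. The endogenous ligand gene, Flt3l, read 9.30 and 9.20 in ligand-treated cells, against 8.81 and 8.83 in cells without ligand. Both ligand arrays lay above both others, and Flt3l was higher by 0.43 ± 0.08 with a limma adjusted p of 0.0212, a call that was lost when any 1 of the 4 arrays was left out. The Flt3l call was also lost after quantile normalisation of the gene values (difference 0.36, limma adjusted p 0.0867). The same held with the median of probe sets (0.43, 0.0720) and without the eBayes trend (0.43, 0.0924). Flt3l averaged 8.52 in parental and 8.60 in vector cells.

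With ligand, 851 of 20227 genes were called higher (4.21%) and 297 lower (1.47%), which makes 1148 in all (5.68%). At an unadjusted p under 0.05 there were 3816 genes (18.9%). Among the called genes the median difference was 0.48 for those that rose and -0.47 for those that fell, and the median over all genes was -0.01. Differences of at least 2-fold were few, with 30 genes higher and 27 lower. Both ligand arrays lay above both no-ligand arrays for 25.0% of all genes and below both for 22.8%, which is the background for counts of groups that do not overlap. All 851 called rises and all 297 called falls were among these genes. A gap between the arrays of a called gene therefore adds nothing to its call. Of the calls, 74.1% were rises, and after quantile normalisation of the gene values 60.3% of 1159 were. The count of 1148 was 0 when the error also took in the spread among the 9 ITD lines, where 1555 genes had an unadjusted p under 0.05 and the smallest adjusted p was 0.141. It was 421 without ligand array 1, 302 without ligand array 2, 555 without no-ligand array 1 and 276 without no-ligand array 2.

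**Figure D1:**
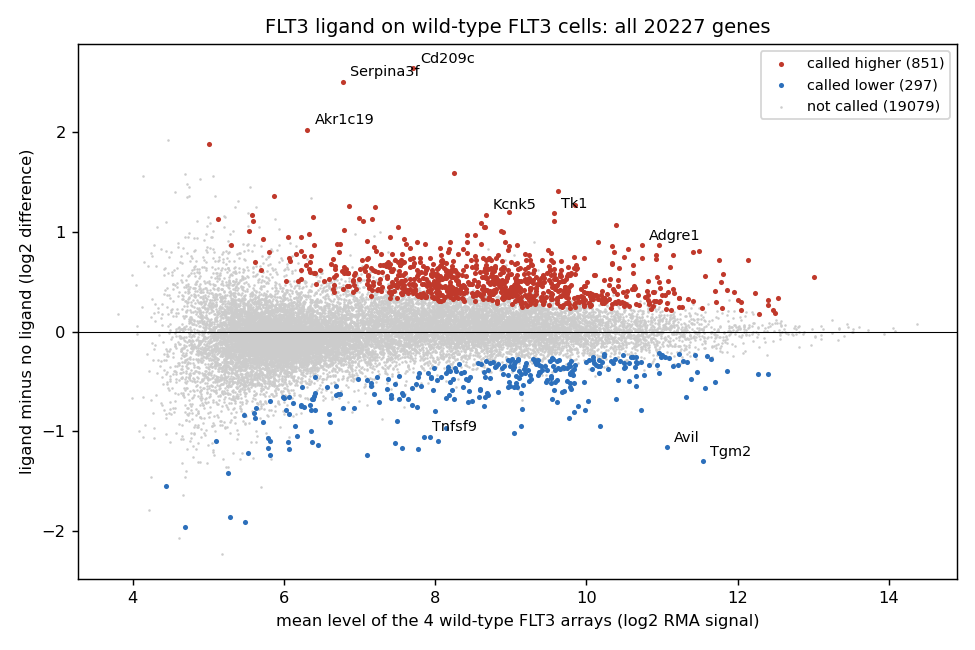
Difference with ligand minus without (log2, vertical axis) against the mean log2 RMA signal of the 4 wild-type FLT3 arrays (horizontal axis), with a point for each of 20227 genes and the called genes coloured by direction. The 851 called rises outnumber the 297 called falls, and Cd209c and Serpina3f stand highest.

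The largest called rise was that of Cd209c, a C-type lectin of the DC-SIGN family. It read 8.97 and 9.10 with ligand against 6.53 and 6.25 without, a rise of 2.64 ± 0.11 or 6.25-fold (limma adjusted p 2.06e-05), and 29 of its 31 probe sets were above. Both ligand arrays stood well clear of both no-ligand arrays, and of the vector mean of 6.64 and the parental mean of 6.98. The ITD arrays ran between 6.17 and 8.73 with a median of 6.66, the highest of them below both ligand arrays. Serpina3f, a member of the clustered mouse serpin family of protease inhibitors, read 7.97 and 8.11 with ligand against 5.62 and 5.43 without and rose by 2.51 ± 0.10 (adjusted p 2.06e-05). Its relative Serpina3g rose by 1.59 ± 0.07. Here the receptor-free controls differed. Serpina3f averaged 8.39 in vector cells, above both ligand arrays, and 6.24 in parental cells, nearer to the no-ligand arrays. The signal of such near-identical family members may be shared between their probe sets.

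Akr1c19, an aldo-keto reductase, read 7.33 and 7.32 with ligand against 5.30 and 5.29 without, and rose by 2.03 ± 0.19 (limma adjusted p 0.00112). The gap between its 2 ligand arrays was small beside the gap to the no-ligand arrays. Clec4n, the gene of the fungal pattern receptor dectin-2, rose by 1.36 ± 0.23, and Tfec, a transcription factor of the MiT family found in macrophages, by 1.17 ± 0.13. The vector means of these genes, 7.63 and 7.80, were above both ligand arrays, and the parental means were 4.80 and 7.29. Kcnk5, a potassium channel, read 9.28 and 9.23 with ligand, against 8.14 and 8.03 without, a rise of 1.17 ± 0.08 (adjusted p 0.000493). The ITD lines held a median of 9.20 for Kcnk5, beside means of 7.94 in vector and 7.61 in parental cells. The replication-linked genes Tk1, which makes thymidine monophosphate, and the histone gene H2aw rose by 1.19 ± 0.06 and 1.27 ± 0.07. For Tk1 the no-ligand arrays lay below the vector mean of 9.91 and the parental mean of 9.59, and for H2aw those means were 9.42 and 9.26. Bex6, the long noncoding RNA Eldr and the immunoglobulin heavy chain gene Ighm completed the 12 largest called rises among genes with at least 3 probe sets and a mean above 6 that were not predicted models, at 1.26 ± 0.13, 1.15 ± 0.14 and 1.14 ± 0.12.

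Tgm2, a protein-crosslinking transglutaminase, had the largest fall among the genes the naming rule admitted. It read 10.91 and 10.87 with ligand, against 12.22 and 12.16 without, and fell by 1.30 ± 0.05 (limma adjusted p 1.38e-05). Both ligand arrays were below both no-ligand arrays, which lay close to the vector mean of 12.40 and the parental mean of 12.62. Ctla2a and Ctla2b, a pair of related cysteine protease inhibitors, fell by 1.24 ± 0.18 and 1.06 ± 0.18. For Ctla2a the fall was 0.83 when no filter on low signal was used. Rgs1, which switches off signals of G protein-coupled receptors, fell by 1.24 ± 0.22 (adjusted p 0.0137), but without the filter its difference was -0.63 with an adjusted p of 0.0861, and with the stricter filter -0.60 with 0.334.

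Havcr2, which encodes the inhibitory receptor TIM-3, read 5.81 and 5.96 with ligand, against 7.15 and 6.90 without, and fell by 1.14 ± 0.13 (limma adjusted p 0.00248). Ptafr, the receptor for platelet-activating factor, read 5.86 and 5.78 with ligand, against 6.88 and 6.98 without, and fell by 1.11 ± 0.14. For both genes neither ligand array reached the lower no-ligand array. Clec4d, a C-type lectin of the mycobacterial glycolipid response, fell by 1.10 ± 0.10, the TNF-family ligand Tnfsf9 by 1.06 ± 0.11 and the urokinase receptor Plaur by 1.02 ± 0.08. Dpep2, a dipeptidase of leukotriene metabolism, fell by 1.17 ± 0.10. The cytoskeletal genes Avil and Bfsp2 fell by 1.16 ± 0.07 and 1.18 ± 0.13. For Avil and Tnfsf9 the receptor-free cells were lower still, with vector means of 9.83 and 6.12 and parental means of 9.19 and 6.06.

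**Figure D2:**
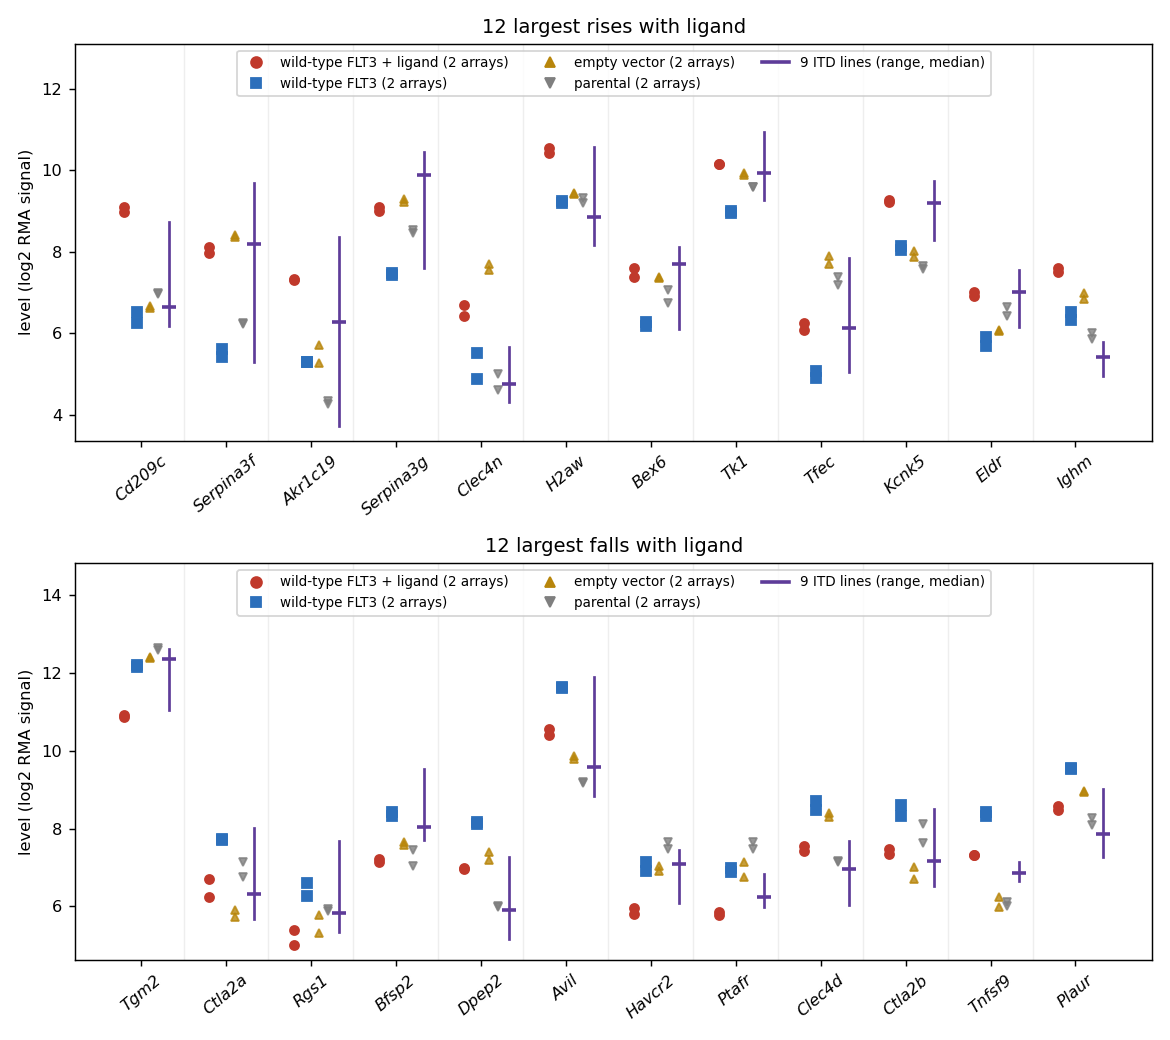
Log2 RMA signal (vertical axis) of the 12 largest rises (upper panel) and 12 largest falls (lower panel) that met the naming rule, with a point for each array of the ligand-treated, no-ligand, vector and parental cells and a bar for the range and median of the 9 ITD lines. The naming rule required the ligand points to lie on 1 side of both no-ligand points, so that gap is no added result.

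Most DNA replication genes were called higher. Of 38 measured, 26 were called higher and 0 lower, beside 4.21% and 1.47% of all genes, and at an unadjusted p under 0.05 limma gave 33 higher and 0 lower. Their mean signal was 9.53 and 9.58 in ligand-treated cells, against 9.16 and 9.12 without ligand, 8.99 in vector and 9.12 in parental cells. The median difference was 0.39, beside -0.01 over all genes. Tk1 read 10.16 and 10.17 with ligand, against 9.00 and 8.95 without (adjusted p 4.08e-05). Uhrf1, which brings the maintenance methyltransferase to newly copied DNA, read 10.90 and 10.84 with ligand, against 10.15 and 10.10 without, and rose by 0.74 ± 0.06 (adjusted p 0.00076). In both genes the lower ligand array exceeded the higher no-ligand array. Mcm7, a subunit of the replicative helicase, rose by 0.51 ± 0.06, and Lig1, the ligase that joins Okazaki fragments, by 0.67 ± 0.08. The helicase loader Cdc6 rose by 0.65 ± 0.08, the polymerase subunits Pold1 and Prim2 by 0.65 ± 0.09 and 0.57 ± 0.08, the thymidylate synthase gene Tyms by 0.53 ± 0.08 and the checkpoint kinase gene Chek1 by 0.62 ± 0.08. The helicase subunits Mcm3, Mcm4, Mcm5 and Mcm6 were also called higher, by 0.29 ± 0.06, 0.37 ± 0.07, 0.37 ± 0.08 and 0.40 ± 0.06.

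Mitosis and spindle genes showed the same direction. Of 44 measured, 30 were called higher and 0 lower, beside 4.21% and 1.47% of all genes. At an unadjusted p under 0.05 limma gave 38 higher and 0 lower, and the median difference was 0.44. The mean of the list was 9.51 and 9.59 with ligand, against 9.17 and 9.07 without. Aurkb, the kinase of the chromosomal passenger complex, read 10.19 and 10.16 with ligand, against 9.46 and 9.62 without, and rose by 0.63 ± 0.07 (limma adjusted p 0.00208). Bub1, a kinase of the spindle checkpoint, read 10.28 and 10.40 with ligand, against 9.66 and 9.53 without, and rose by 0.74 ± 0.08 (adjusted p 0.00175). The ligand arrays of both genes were above the no-ligand arrays, and neither gene's difference reached 1. Kif23, a motor of the central spindle, rose by 0.66 ± 0.07, and Mki67, the gene of the Ki-67 antigen, by 0.67 ± 0.08. The mitotic kinase Cdk1 rose by 0.28 ± 0.05 (adjusted p 0.0156). The kinetochore motor Cenpe rose by 0.78 ± 0.11, the kinase Plk1 by 0.43 ± 0.06, the topoisomerase Top2a by 0.40 ± 0.06 and Mybl2, a transcription factor of G2 genes, by 0.62 ± 0.10.

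Of 25 DNA repair genes, 14 were called higher and 0 lower, beside 4.21% and 1.47% of all genes. At an unadjusted p under 0.05 limma gave 20 higher and 0 lower, and the median was 0.47. Rad54l, a motor of homologous recombination, read 9.13 and 9.17 with ligand, against 8.13 and 7.99 without, and rose by 1.09 ± 0.08 (limma adjusted p 0.000493). Its relative Rad54b rose by 0.95 ± 0.13, the Fanconi anaemia gene Fanca by 0.66 ± 0.08 and the checkpoint kinase gene Chek2 by 0.60 ± 0.08. For Rad54l the groups differed by more than the arrays of either group did. Brca1, Brca2 and Fanci also rose, by 0.69 ± 0.10, 0.67 ± 0.15 and 0.78 ± 0.11. The replication, mitosis and repair lists together had 70 of 107 measured genes called higher and 0 called lower. No member of the 3 lists was called higher when all 17 arrays set the error. The counts called higher for replication, mitosis and repair were 12, 18 and 8 without ligand array 1, and 8, 8 and 3 without ligand array 2. They were 17, 22 and 10 without no-ligand array 1, and 9, 8 and 3 without no-ligand array 2. Of 21 genes that time entry into the cycle from G1, 3 were called higher and 0 lower (10 and 0 at an unadjusted p under 0.05). Rbl1, a pocket protein related to the retinoblastoma protein, rose by 0.70 ± 0.09, the kinase gene Cdk6 by 0.28 ± 0.06 and E2f1 by 0.36 ± 0.08. Ccne2, Ccnd2 and the inhibitor gene Cdkn1b were not called, with differences of 0.62 ± 0.17, -0.12 ± 0.08 and 0.31 ± 0.08. Cell number, doubling time and cycle phase were not analysed here.

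**Figure D3:**
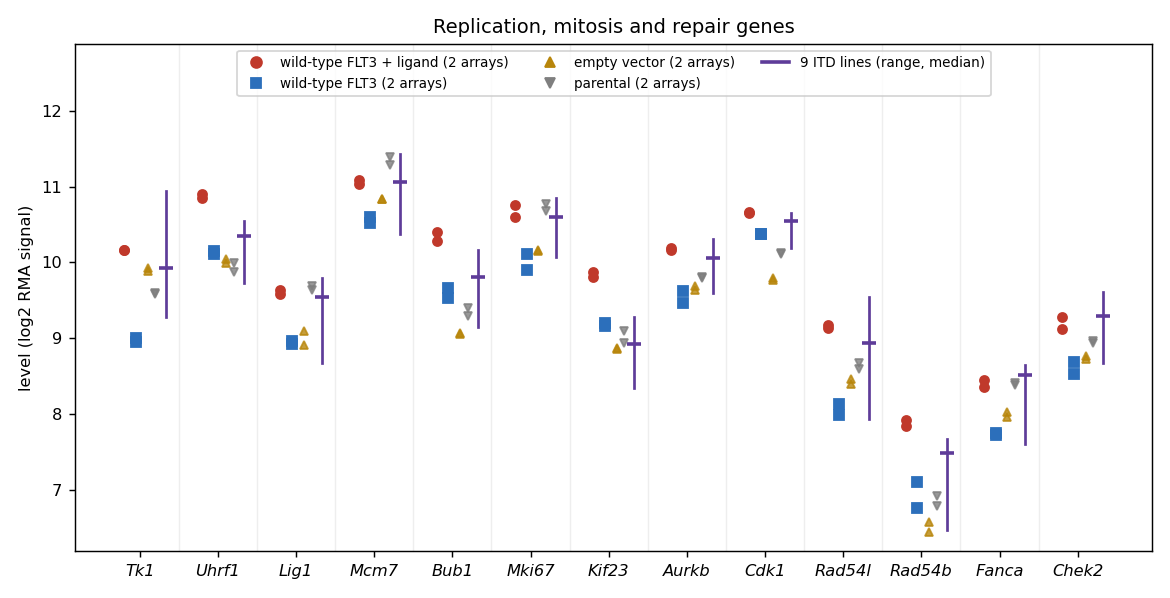
Log2 RMA signal (vertical axis) of named replication, mitosis and repair genes, with a point for each array of the ligand-treated, no-ligand, vector and parental cells and a bar for the range and median of the 9 ITD lines. The ligand points lie above the no-ligand points in every gene shown, as in all 851 genes called higher. The rise was 1.19 in Tk1 and 0.28 in Cdk1.

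Promoter sequence is shown for the replication and mitosis genes with the smallest unadjusted p in limma, because the promoters of such genes are known for shared cell cycle elements. Aurkb was also among them, but no promoter sequence was at hand for it. The sequences cover the 250 bases before the start site, from RefSeq on build GRCm38.p6, 5′ to 3′ on the strand of the gene, with matches to a searched motif in capitals. Tk1 lies on the minus strand at chr11:117826015-117826264, Uhrf1 on the plus strand at chr17:56303087-56303336 for the first of its 2 listed starts, and Bub1 on the minus strand at chr2:127831860-127832109.
Tk1: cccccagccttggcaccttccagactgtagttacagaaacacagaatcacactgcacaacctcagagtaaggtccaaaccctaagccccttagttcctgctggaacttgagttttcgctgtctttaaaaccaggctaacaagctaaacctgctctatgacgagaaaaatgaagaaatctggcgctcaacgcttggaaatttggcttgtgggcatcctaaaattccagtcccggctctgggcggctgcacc
Uhrf1: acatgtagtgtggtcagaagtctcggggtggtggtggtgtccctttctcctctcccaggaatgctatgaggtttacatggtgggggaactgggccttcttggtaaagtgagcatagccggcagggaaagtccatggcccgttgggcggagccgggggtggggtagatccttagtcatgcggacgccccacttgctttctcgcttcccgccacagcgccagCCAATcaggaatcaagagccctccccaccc
Bub1: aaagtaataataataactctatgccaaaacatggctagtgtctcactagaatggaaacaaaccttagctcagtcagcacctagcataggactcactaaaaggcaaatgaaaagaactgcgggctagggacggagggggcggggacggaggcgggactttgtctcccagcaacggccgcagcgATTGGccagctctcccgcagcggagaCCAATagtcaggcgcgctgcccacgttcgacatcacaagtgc
The motifs searched on both strands were CCAAT, the core bound by NF-Y; TTTGAA, the cell cycle gene homology region; and the E2F forms TTTGGCGC, TTTGCCGC, TTTCGCGC and TTTCCCGC. No string searched contains another. Uhrf1 held CCAAT at -30, and Bub1 held it at -42 and, on the opposite strand, at -68, counted from the start site to the first base of the match. The Tk1 window held none of these letter strings. CCAAT was found in 66.7% of 69 promoters of the replication and mitosis lists, in 41.3% of 698 promoters of genes called higher, in 35.8% of 226 of genes called lower and in 35.4% of 15535 of genes tested. TTTGAA stood in 23.2% of the replication and mitosis promoters and in 12.8% of those tested, and an E2F form in 14.5% and 2.61%. A match describes these letters and not binding by a factor.

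Of 26 genes of receptor adaptors, kinases and phosphatases, 5 were called higher and 1 lower, beside 4.21% and 1.47% of all genes, and the list median was 0.17. Beside Flt3l, the kinase Fes rose by 0.36 ± 0.06, the adaptor Grb2 by 0.42 ± 0.08, the PI3-kinase subunit Pik3cd by 0.38 ± 0.09 and the phospholipase Plcg2 by 0.38 ± 0.09, and the adaptor Sla2 fell by 0.67 ± 0.07. The Grb2 difference was 0.69 with the median of probe sets, and its call was lost without ligand array 1 (limma adjusted p 0.0875), ligand array 2 (0.144) or no-ligand array 2 (0.151), and without the probe set filter (0.0977), the trend (0.114) or the vector pair (0.0516). Among 17 genes that ERK signalling induces to restrain itself, 0 were called higher and 1 was called lower, at limma's adjusted p under 0.05, against 1 and 3 at an unadjusted one. Dusp6, the ERK phosphatase most used as a readout of the cascade, read 10.38 and 10.37 with ligand, against 10.29 and 10.28 without, a difference of 0.09 ± 0.06 (adjusted p 0.494). The ligand arrays of Dusp6 were slightly above the no-ligand arrays. All 4 stood above the vector mean of 8.85 and the parental mean of 8.71, and the ITD lines ran between 9.72 and 10.41 with a median of 10.16. Spred2, an inhibitor of RAF activation, fell by 0.55 ± 0.11, and Etv5, an ERK-induced ETS factor, had a difference of -0.43 ± 0.12 with an adjusted p of 0.0847. For Etv5, too, the 4 wild-type FLT3 arrays were above the vector mean of 5.95 and the parental mean of 5.41. Of 17 immediate early genes, 0 were called higher and 2 lower (1 and 6 at an unadjusted p under 0.05), Jun at -0.78 ± 0.12 and Fosl2 at -0.41 ± 0.09. Egr1 differed by 0.25 ± 0.16 and was not called (adjusted p 0.478).

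For STAT5 targets the test called a minority of the list. Of 18 measured, 5 were called higher and 0 lower, beside 4.21% and 1.47% of all genes, with a median of 0.16. Cish, a feedback inhibitor of cytokine receptors, read 9.73 and 9.66 with ligand, against 9.25 and 9.14 without, and rose by 0.50 ± 0.08 (limma adjusted p 0.00796). The ligand arrays of Cish were above both no-ligand arrays, and the vector and parental means were 8.85 and 8.20. The helix-loop-helix gene Id1 rose by 0.39 ± 0.07, the semaphorin Sema7a by 0.62 ± 0.11, the repressor Gfi1 by 0.38 ± 0.08 and the receptor Tnfrsf13b by 0.29 ± 0.06. The kinase Pim1, the cytokine inhibitor Socs2 and the survival gene Bcl2l1 were not called, with differences of 0.22 ± 0.07, -0.04 ± 0.09 and 0.21 ± 0.14 and adjusted p of 0.106, 0.874 and 0.501. The difference of Socs2 changed sign with the probe set filter. Of 23 apoptosis genes 0 were called by limma in either direction, and 4 higher and 4 lower had an unadjusted p under 0.05.

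The growth gene Myc read 12.11 and 12.19 with ligand, against 11.81 and 11.70 without, and rose by 0.40 ± 0.05 (limma adjusted p 0.00527). Its relative Mycn read 8.30 and 8.30 with ligand, against 7.35 and 7.49 without, and rose by 0.88 ± 0.09, but by 0.51 with an adjusted p of 0.223 when the median of its probe sets was used. These were the only called members among 30 genes of the Myc and ribosome biogenesis list. Of 19 targets of FOXO factors, which AKT holds out of the nucleus, 1 was called higher and 2 lower, with a median of -0.08. Cited2 rose by 0.33 ± 0.06, and the autophagy genes Map1lc3b and Bnip3 fell by 0.50 ± 0.07 and 0.38 ± 0.07. Il3ra, the private chain of the interleukin-3 receptor, and Csf2rb, its shared chain, were not called, with differences of -0.13 ± 0.12 and 0.10 ± 0.08. Csf3r, the G-CSF receptor, was the 1 called gene of 21 cytokine receptor genes and rose by 0.90 ± 0.10, with 8.88 and 8.86 in ligand-treated cells, against 8.07 and 7.87 without. Over all genes 4.21% were called higher and 1.47% lower. The shares called higher in the Myc, FOXO and cytokine receptor lists, 6.67%, 5.26% and 4.76%, were near that background.

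**Figure D4:**
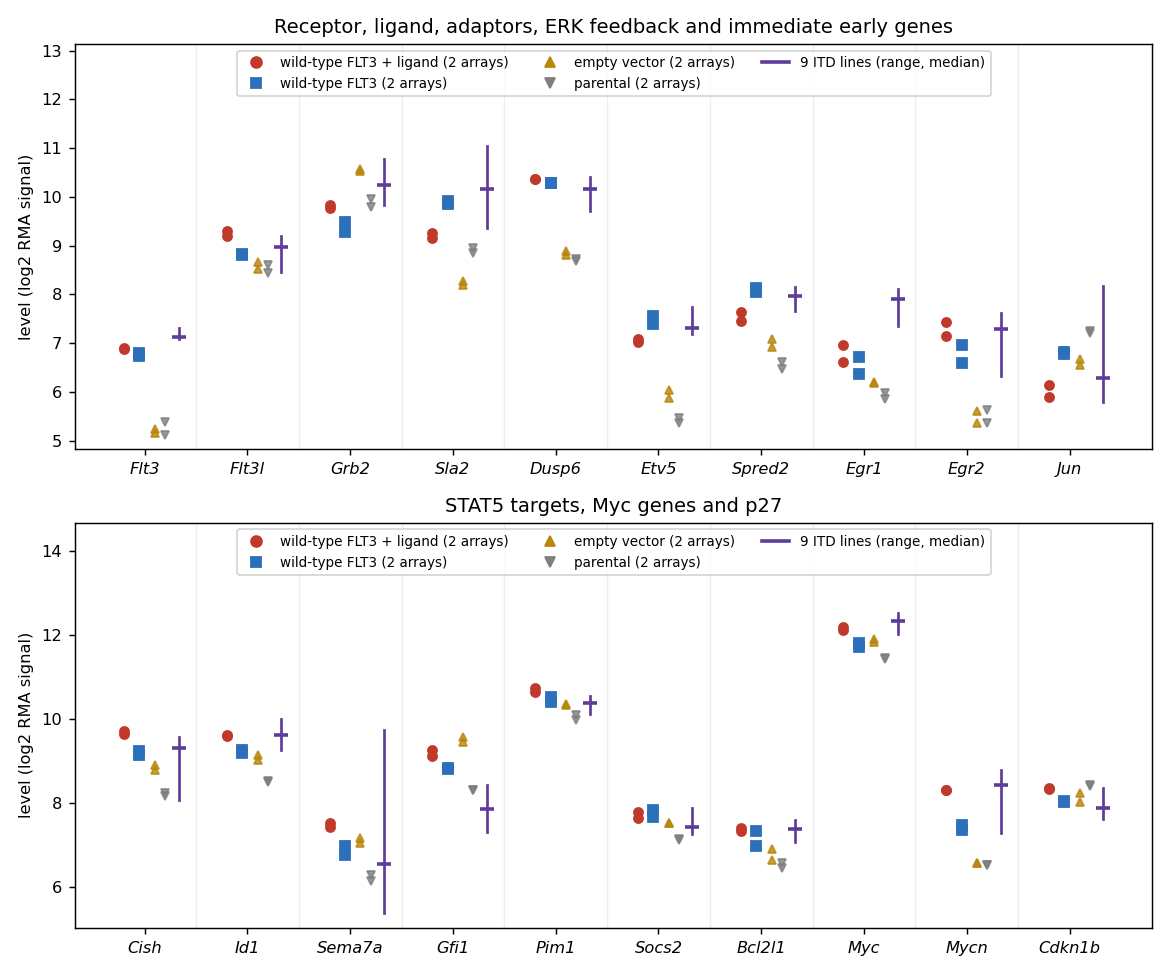
Log2 RMA signal (vertical axis) of receptor, adaptor, ERK feedback and immediate early genes (upper panel) and of STAT5 targets, Myc genes and Cdkn1b, the gene of p27 (lower panel), with a point for each array and a bar for the range and median of the 9 ITD lines. Dusp6 differs by 0.09 between ligand and no-ligand cells, Cish and Myc are higher with ligand, and Jun is lower.

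Lineage genes moved in both directions. Of 11 primary granule genes, which mark promyelocytes, 3 were called higher and 0 lower, beside 4.21% and 1.47% of all genes, with a median of 0.04. Prtn3, proteinase 3, read 12.11 and 12.11 with ligand, against 11.38 and 11.40 without, and rose by 0.72 ± 0.05 (limma adjusted p 0.000534). The ligand arrays of Prtn3 came nearer to the vector mean of 12.59 than the no-ligand arrays did. Prss57, another granule protease, rose by 0.86 ± 0.05 and Ms4a3 by 0.26 ± 0.05. Of 28 late granule and mature neutrophil genes, 3 were called higher and 7 lower, with a median of -0.20. Complement C3 rose by 0.77 ± 0.06, the secondary granule gene Ngp fell by 0.66 ± 0.05, lactoferrin, Ltf, fell by 0.47 ± 0.06 and lipocalin, Lcn2, by 0.43 ± 0.05. Of 8 eosinophil genes, only eosinophil peroxidase, Epx, was called, at 0.54 ± 0.08. Epx read 7.53 and 7.74 with ligand, against 7.14 and 7.05 without. All 4 arrays were far below the vector mean of 11.37, the parental mean of 12.78 and the ITD median of 11.88. The median of the list was -0.25 and 2 of its 8 members had a positive difference, and the granule protein Prg2 differed by -0.40 ± 0.10 without being called (limma adjusted p 0.0528).

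Of 29 monocyte and macrophage genes, 2 were called higher and 5 lower, with a median of -0.11. Beside 4.21% and 1.47% of all genes, the share called higher is near the background. Adgre1, a macrophage surface antigen of the adhesion receptor family, read 11.14 and 11.19 with ligand, against 10.32 and 10.28 without, and rose by 0.87 ± 0.05 (limma adjusted p 0.000217), and Clec5a rose by 0.44 ± 0.09. The fallers were Clec4d, its neighbour receptor Clec4e at -0.79 ± 0.07, the amplifying receptor Trem1 at -0.59 ± 0.09, apolipoprotein Apoe at -0.48 ± 0.11 and the Fc receptor Fcgr3 at -0.40 ± 0.09. Of 22 mast cell and basophil genes, 4 were called higher and 5 lower, with a median of 0.0009. The protease Gzmb fell by 0.83 ± 0.09, the IgE receptor chain Fcer1a by 0.61 ± 0.09 and the histamine-making enzyme Hdc by 0.83 ± 0.17, while the leukotriene synthase Ltc4s rose by 0.53 ± 0.08. For dendritic cells, the lineage FLT3 ligand is best known for, 0 of 24 genes were called by limma, and at an unadjusted p under 0.05 there were 1 higher and 0 lower. Irf8, a factor that dendritic cells need, read 6.31 and 6.20 with ligand, against 6.23 and 6.49 without, and differed by -0.11 ± 0.13 (adjusted p 0.74). Of 21 lymphoid genes 0 were called by limma, 1 was higher at an unadjusted p under 0.05, and 0 had a mean signal above 8. Of 10 genes of MHC class II presentation, only the invariant chain Cd74 was called, with a fall of 0.51 ± 0.11.

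Of 21 progenitor genes, 7 were called higher and 1 lower, beside 4.21% and 1.47% of all genes, and the list median was 0.06. Lmo2, a bridging factor of blood stem cells, read 10.78 and 10.75 with ligand, against 9.88 and 10.05 without, and rose by 0.80 ± 0.08 (limma adjusted p 0.00122). Both ligand arrays exceeded both no-ligand arrays, beside a vector mean of 10.63, a parental mean of 9.49 and an ITD median of 10.21. Gata2, which keeps stem cells and mast cell precursors, rose by 0.55 ± 0.06, the cycling progenitor factor Myb by 0.37 ± 0.06, Runx1 by 0.66 ± 0.11, Meis1 by 0.63 ± 0.12 and Tal1 by 0.36 ± 0.08. Unlike Lmo2, Gata2, Myb and Runx1 had both ligand arrays below the vector means, which were 9.69, 11.32 and 8.48. Their ligand arrays were also below the parental means of 10.14, 11.32 and 9.25 and the ITD medians of 10.05, 11.13 and 8.34. For Tal1 the ligand arrays, at 9.19 and 8.97, lay on either side of the vector mean of 9.00 and the parental mean of 9.01. The surface antigen gene Ly6a fell by 0.66 ± 0.15. Of 20 erythroid and megakaryocyte genes, 3 were called higher and 0 lower (7 and 1 at an unadjusted p under 0.05), with a median of 0.13. These were the integrin Itgb3 at 0.59 ± 0.10, Tal1, and Gp9 at 0.70 ± 0.16. For Gp9 the difference was 0.41 without ligand array 1 and 0.36 with the median of probe sets. Its call was lost there (limma adjusted p 0.151 and 0.613), without either no-ligand array (0.148 and 0.190), with the 4 wild-type FLT3 arrays only (0.0973), without the parental pair (0.0546) or the vector pair (0.0770), without the trend (0.135), and without the probe set filter (0.0606) or with the stricter one (0.0825). Of 24 myeloid transcription factors, 5 were called higher (Gata2, Myb, Runx1, Id1 and Gfi1) and 1, Jdp2, lower, at -0.47 ± 0.08. The mean of the late granule list was 8.59 and 8.62 with ligand, against 8.70 and 8.70 without, and that of the progenitor list 7.75 and 7.75 with ligand, against 7.59 and 7.62 without. Whether the makeup of the cultures differed, and any part of it in the proliferation counts, was not tested.

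Chemokine, stress and metabolic genes completed the lists. Of 23 chemokine and cytokine genes, 3 were called higher and 4 lower, beside 4.21% and 1.47% of all genes, with a median of -0.22. Ccl9 read 10.16 and 10.24 with ligand, against 9.62 and 9.44 without, and rose by 0.67 ± 0.08 (limma adjusted p 0.00257), with Ccl6 at 0.39 ± 0.09 and Tgfb1 at 0.32 ± 0.06. Ccl5, Cxcl2 and Ccl3, which attract T cells, neutrophils and monocytes, fell by 0.90 ± 0.10, 0.80 ± 0.09 and 0.56 ± 0.09. Of 23 interferon-induced genes, 0 were called higher and 2 lower (5 and 2 at an unadjusted p under 0.05) and the list median was 0.11, with Irf7 at -0.63 ± 0.10 and Rsad2 at -0.66 ± 0.15. Of 14 genes known to move with cell handling, 0 were called higher and 3 lower (1 and 6 at an unadjusted p under 0.05), Jun, Dusp1 at -0.55 ± 0.07 and Hmox1 at -0.62 ± 0.12. That list overlaps the immediate early genes, and the part of handling in their falls was not tested.

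Of 19 cholesterol synthesis genes, 0 were called higher and 5 lower by limma, against 1 and 8 at an unadjusted p under 0.05, with a median of -0.07 and beside 4.21% and 1.47% of all genes. Hmgcs1, which makes the precursor of mevalonate, read 8.72 and 8.73 with ligand, against 9.27 and 9.19 without, and fell by 0.51 ± 0.07 (limma adjusted p 0.00598). Both ligand arrays were below both others. Fdft1, Hsd17b7 and Sqle, enzymes of later steps, fell by 0.48 ± 0.07, 0.45 ± 0.09 and 0.35 ± 0.06, and the sterol sensor partner Insig1 by 0.29 ± 0.07. Of 24 glycolysis genes, 2 were called higher, a share near the background, and 3 lower, with a median of -0.01. Pfkfb3, which makes an activator of glycolysis, rose by 0.56 ± 0.09, and the glucose transporter Slc2a3 and the hexokinases Hk1 and Hk2 fell by 0.32 ± 0.05, 0.28 ± 0.06 and 0.39 ± 0.07. Of 21 amino acid response genes 1 was called higher, Shmt2 at 0.31 ± 0.06, and 1 lower, the cystine transporter Slc7a11 at -0.55 ± 0.11.

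**Figure D5:**
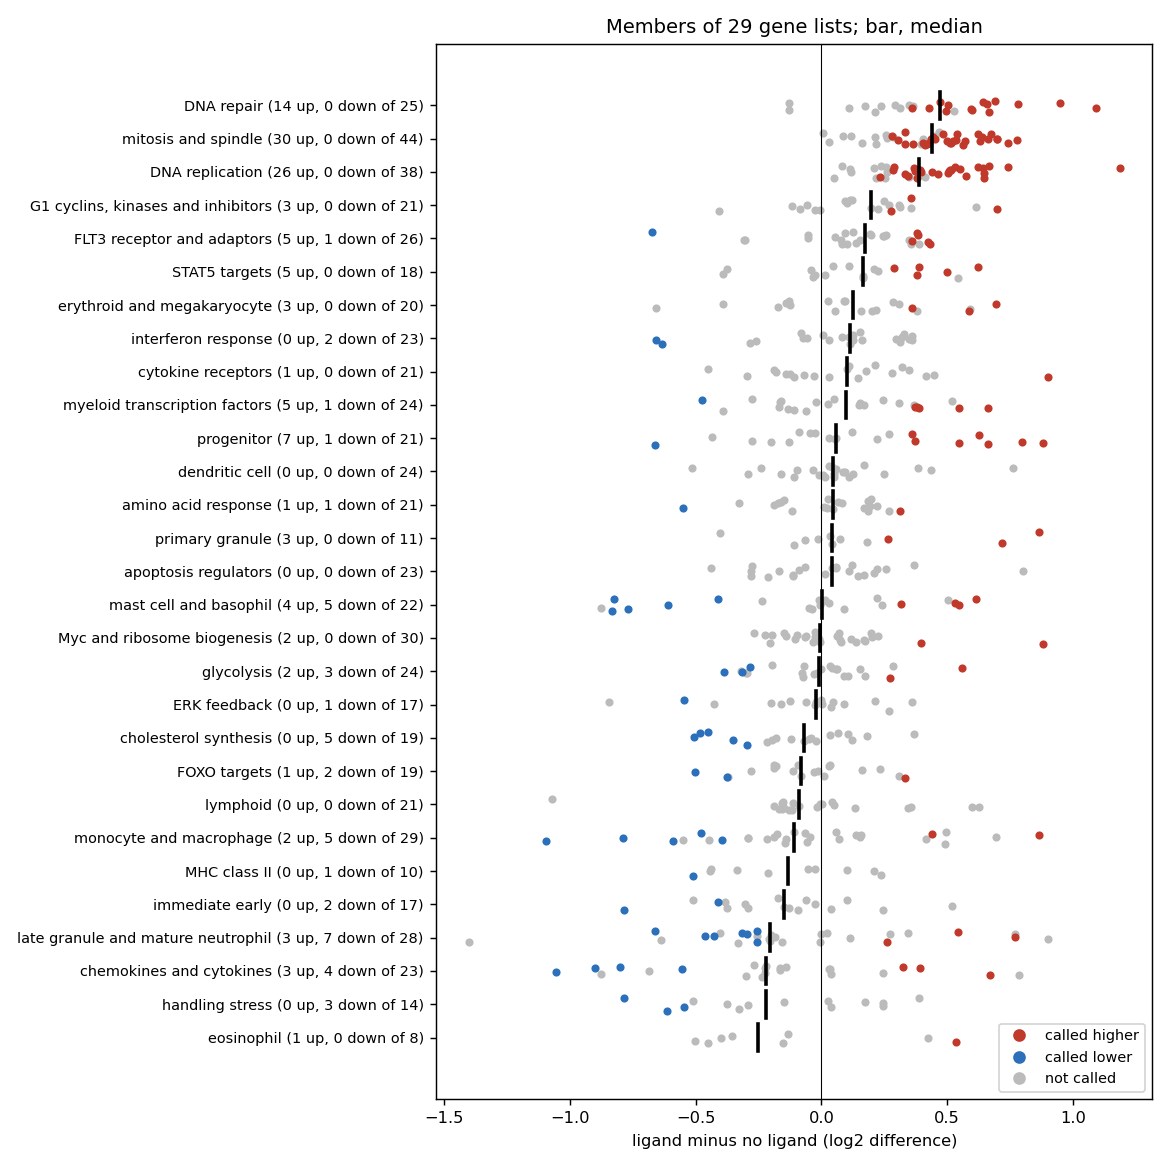
Log2 difference with ligand minus without (horizontal axis) for each measured member of 29 gene lists, ordered by median, with called genes coloured by direction and a bar at each list median. The repair, mitosis and replication lists have medians of 0.47, 0.44 and 0.39 and no called falls.

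The levels of the called genes in the ITD lines are given beside these values. The ITD lines differ from ligand-treated cells in receptor form. The ITD lines grew without interleukin-3, and whether the ligand-treated cells had it is not stated. No test was made between ITD and ligand-treated cells here. The median of the 9 ITD arrays lay above the mean of the parental and vector cells for 60.9% of the 851 genes called higher with ligand, for 35.7% of the 297 called lower and for 50.7% of all genes. DNA replication genes had an ITD median of 9.38 on average over the list, beside 9.53 and 9.58 on the ligand arrays and 9.16 and 9.12 on the no-ligand arrays. Cish ran between 8.09 and 9.58 with a median of 9.32 in ITD lines, and its vector and parental means lay at 8.85 and 8.20.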

How the data were processed

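RNA was measured on 17 mouse exon arrays (Affymetrix). Per the submitters' processing notes, the authors' deposited values are log2 RMA signals per probe set, made with Affymetrix Expression Console 1.1. The table holds 1256831 probe sets, with array medians of 4.63 to 4.69. For each gene, the 237584 probe sets that map to 1 symbol and whose 17-array mean exceeds the median row mean of 4.60 were averaged, which gave 20227 genes. Of 22296 array annotation symbols, 4227 were updated by name, where exactly 1 RefSeq gene listed the symbol as a synonym, and 63 were kept unmatched. Exon-level probe sets of 1 gene can disagree, and RMA forces arrays to a common distribution, so shifts of all genes are not visible. In R 4.3.3, limma 3.58.1 was fitted on the 8 arrays without an ITD (lmFit, eBayes with trend, 4 groups, 4 residual degrees of freedom, 4.74 prior), two-sided, with Benjamini-Hochberg adjustment. The same fit was also run on simulated data. The noise there was independent for each gene and array, so effects shared within a culture were not covered. No depth exists for arrays, so the number of arrays limits the precision, 2 a side.

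Named were the 12 largest called rises and falls with at least 3 probe sets and a mean above 6, less predicted models. The rule also required both ligand arrays to lie beyond both no-ligand arrays, which every called gene met. A set list of 20 genes was named too, and in each gene list up to 4 members with the smallest p. Members named beyond these 4, as in the replication, mitosis, repair and mast cell lists, were picked after their values were seen. The genes, lists and comparison were chosen with earlier results of these data known. Labels number the arrays 1 and 2 without tying a number to a shared culture, and same-numbered deviations correlated at -0.115 over 2 pairs, so the numbers were not used to pair arrays. Alternatives changed the arrays in the error term, the probe set filter and summary, normalisation, eBayes setting and each left-out array. Sets excluding the parental or the vector pair were added after seeing the data.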

Additional observations from a re-analysis of the deposited data

Results flagged for a closer look

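The check for an array far from the others was run only within the 9 ITD lines, and the other groups were not checked. Of 44 genes checked, 5 had such an array, and chance flags about 1 group in 20. Ighm was lowest in ITD line 8 at 4.95, against 5.40 in the next line, while it rose with ligand on wild-type FLT3. Plaur was highest in ITD line 7 at 9.02, against 8.07 in the next line. Flt3l was lowest in ITD line 9 at 8.47, against 8.92. Cish was lowest in ITD line 4 at 8.09, against 9.01, and Ccne2 in ITD line 7 at 7.16, against 7.77. None of these arrays entered the error term of the ligand comparison.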

How the results depend on the processing

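Of 96 named genes called with ligand against without, 0 reversed under the alternatives run, and 46 lost the call when some 1 of the 4 arrays was left out. The count of 1148 called genes was 0 with the error of all 17 arrays, 580 with the median of probe sets, 307 without the trend, 276 to 555 without 1 array and 758 without the vector pair. In those settings the called members of the replication, mitosis and repair lists numbered 0, 0 and 0 with all 17 arrays, 12, 18 and 8 with the median of probe sets and 11, 9 and 7 without the trend. Without 1 array they ranged 8 to 17, 8 to 22 and 3 to 10. List medians after another quantile normalisation were 0.32, 0.37 and 0.37. Without 1 array they ranged 0.36 to 0.42, 0.37 to 0.51 and 0.39 to 0.49. The repair median was 0.37 without a probe set filter, and the replication median 0.42 with the median of probe sets. A replicate block gave 864 calls over 8 arrays and 1310 over the 4 arrays, without the block 1148 and 949. Uncalled genes reversed as follows: Spry4 to -0.19 and Socs2 to 0.31 without a filter, Socs2 to 0.13 and Batf3 to -0.19 with the stricter filter, and Socs2 to 0.17, Irf8 to 0.31, H2-Ab1 to 0.18 and Zap70 to -0.0043 with the median of probe sets. With 1 array left out, Spry4 ranged -0.025 to 0.031, Il3ra ranged -0.31 to 0.062, Socs2 ranged -0.12 to 0.042, Zap70 ranged -0.0064 to 0.27, Cd79b ranged -0.22 to 0.039 and Irf8 ranged -0.24 to 0.022. The cause of these changes was not tested. The other counts of calls were 942 without a filter, 1376 with the stricter one, 1159 after quantile normalisation, 1148 with robust eBayes and 1368 without the parental pair. With 2 arrays a side, small differences and changes of genes with low signal could go undetected.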

Other observations

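Genes outside the lists moved with ligand too. Of 35 histone genes measured, taken by their names after results were seen, 15 were called higher and 0 lower by limma, beside 4.21% and 1.47% of all genes, with a median difference of 0.49. Probe sets of such near-identical genes may share signal. The chromatin genes Dnmt1 and Ezh2, which maintain DNA methylation and place repressive H3K27 methylation, rose by 0.64 ± 0.08 and 0.58 ± 0.08. The microRNA host gene Mir17hg read 10.17 and 10.14 with ligand, against 9.46 and 9.57 without, and rose by 0.64 ± 0.07 from 2 probe sets. All genes of this paragraph were picked after their values were seen.

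The genes of this paragraph were picked among the called falls after their values were seen, and describe only themselves. Sqstm1, an autophagy receptor, read 11.42 and 11.15 with ligand, against 11.81 and 11.90 without, and fell by 0.57 ± 0.08 (limma adjusted p 0.00629). The autophagy kinase Ulk1 fell by 0.46 ± 0.08, and the lysosomal enzymes Ctsd, Lgmn and Scpep1 by 0.40 ± 0.06, 0.46 ± 0.08 and 0.80 ± 0.10. Ndrg1, Ankrd37, Ero1a and P4ha1, each known to be induced by hypoxia, fell by 0.50 ± 0.07, 0.62 ± 0.08, 0.48 ± 0.07 and 0.36 ± 0.06. The antiproliferative genes Btg1 and Btg2 fell by 0.60 ± 0.09 and 0.79 ± 0.06, and for Btg2 the arrays read 9.62 and 9.55 with ligand, against 10.37 and 10.38 without. In each of these genes both ligand arrays lay below both no-ligand arrays, as in all 297 genes called lower, so this adds nothing to the calls.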
